A study of Mus musculus with 12 samples.

Results

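The transcriptional response of Rb null fibroblasts to cisplatin was read from 6 of the 12 arrays of this series, taken by their sample titles: 3 arrays of cisplatin-treated Rb-/- mouse embryonic fibroblasts (MEFs), lettered a, b and c, against 3 arrays of untreated Rb-/- MEFs, numbered 1, 2 and 3. MEFs are primary connective tissue cells grown out of mouse embryos, here of embryonic day 13.5 and used at passage 2. The treated cells received 16 µM cisplatin for 24 hours, and the untreated cells received none; every cell in this comparison, control or treated, lacked Rb, and the kind of Rb allele, the mouse strain and the number of embryos are not given in the sources used here. The other 6 arrays hold wildtype MEFs of the same age and passage, 3 untreated and 3 treated with the same dose for the same time. Each of the 4 conditions was a single RNA sample hybridized 3 times, 6 µg per array, so the p-values below measure the spread between hybridizations, which may be technical, and not the spread between embryos or cultures.

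Cisplatin is a platinum drug that binds DNA and ties bases of the same or of opposite strands together. Such crosslinks stall RNA polymerase and the replication fork, and cells answer through checkpoint kinases and the transcription factor p53, which raises genes for cell cycle arrest, repair and cell death. The retinoblastoma protein Rb holds back the E2F transcription factors, which drive the genes of DNA replication, and in its absence cells are known to arrest poorly after DNA damage. Fibroblasts are the main makers of collagen and other extracellular matrix, and they carry a contractile actin cytoskeleton.

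The values are MAS5 signals, a linear brightness per probe set. Changes are given as differences of log2(signal + 10.4), cisplatin minus untreated, with the standard error (SE) of the limma fit; adding 10.4, the 10th percentile of the deposited values, understates the change of dim genes. A gene was called higher (here "rose") or lower ("fell") where its Benjamini-Hochberg adjusted p from limma was under 0.05 and its change was at least 1.5-fold; every adjusted p below comes from that fit over 13575 probe sets. Values of single arrays are always listed in the order 1, 2 and 3 for untreated and a, b and c for treated cells.

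The Rb1 probe set, which measures the gene the cells lack, read 105, 91.7 and 85.3 in untreated and 102, 74 and 92.4 in treated Rb null cells, against 419.9, 472 and 488 in untreated and 452, 344 and 352 in treated wildtype cells. Every Rb null array lay below every wildtype array, and within the Rb null cells the drug left a difference of -0.07 (SE 0.15, adjusted p = 0.7); where its probes lie relative to the deletion is not given in the sources used here. Across all probe sets tested, arrays of the same Rb null group correlated at 0.984 to 0.992 (untreated) and 0.984 to 0.988 (treated), and arrays of different treatment at 0.846 to 0.852. All arrays share a trimmed mean signal of 500.1 to 500.2, while the median signal was 176.4 to 190.0 in untreated and 161.15 to 166.4 in treated Rb null cells. The ratio of the 3-prime to the 5-prime Gapdh control probe set, a sign of RNA integrity, was 0.759 to 0.776 untreated and 0.798 to 0.881 treated. The same ratio for beta-actin was 1.10 to 1.23 untreated and 1.19 to 1.32 treated, so these groups overlap. The part of RNA integrity in the changes below was not tested.

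Fibroblast markers were present throughout: none of the 13 on the array averaged under 100 in both groups, with Vim, the intermediate filament vimentin, at 15830.2 ± 838 (SD, n = 3) and 16586 ± 513 and Thy1, a fibroblast surface protein, at 3393 ± 169 and 3490.0 ± 171. Of the markers of other cell types, 7 of 10 endothelial genes, 8 of 16 epithelial genes, 10 of 16 striated muscle genes, 6 of 8 adipocyte genes, 4 of 5 erythroid genes, 7 of 14 neural genes and 3 of 10 cartilage and bone genes averaged under 100 in both Rb null groups, among them Cdh5, Epcam, Myod1, Adipoq and Klf1. Some neural and cartilage markers were bright: the progenitor filament gene Nes averaged 1796 untreated and 1651 treated, the cartilage collagen Col2a1 1420.2 and 510.2, and the matrix protein Mgp 3252 and 2998. Their part in the changes below was not tested. None of the 21 macrophage and leukocyte markers was that low in both groups. Xist, the RNA that coats the inactive X chromosome of female cells, read 2843, 3494 and 3081 in untreated and 3340.2, 3227 and 3761 in treated Rb null cells, and the Y-linked Eif2s3y averaged 1.43 and 6.63. In untreated wildtype cells Xist read 118, 115 and 163 and Eif2s3y averaged 478, against averages of 2379 and 1.27 in treated wildtype cells. The untreated wildtype group thus stands apart from the other 3. The Rb null contrast does not use its means, and without it the fit called 2147 probe sets higher and 2841 lower, against 2141 and 2841 with it. The excess of falls depends on the scaling: quantile normalization called 2468 probe sets higher and 2461 lower, and centring each array on its median 2551 and 2480.

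Of 7945 genes tested, 1317 rose (16.6%) and 1615 fell (20.3%), and these shares are the background against which each gene list below should be read. The median change of all genes was -0.02. At a 2-fold minimum 598 genes rose and 803 fell, at 4-fold 101 and 203, at 8-fold 23 and 55, and at 16-fold 4 and 11, so that with the deposited scaling falls outnumbered rises more strongly as the size of the change grew. The 3 treated arrays lay wholly outside the range of the 3 untreated arrays in 2911 of the 2932 genes called, and in 5548 of all 7945 genes.

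**Figure D1:**
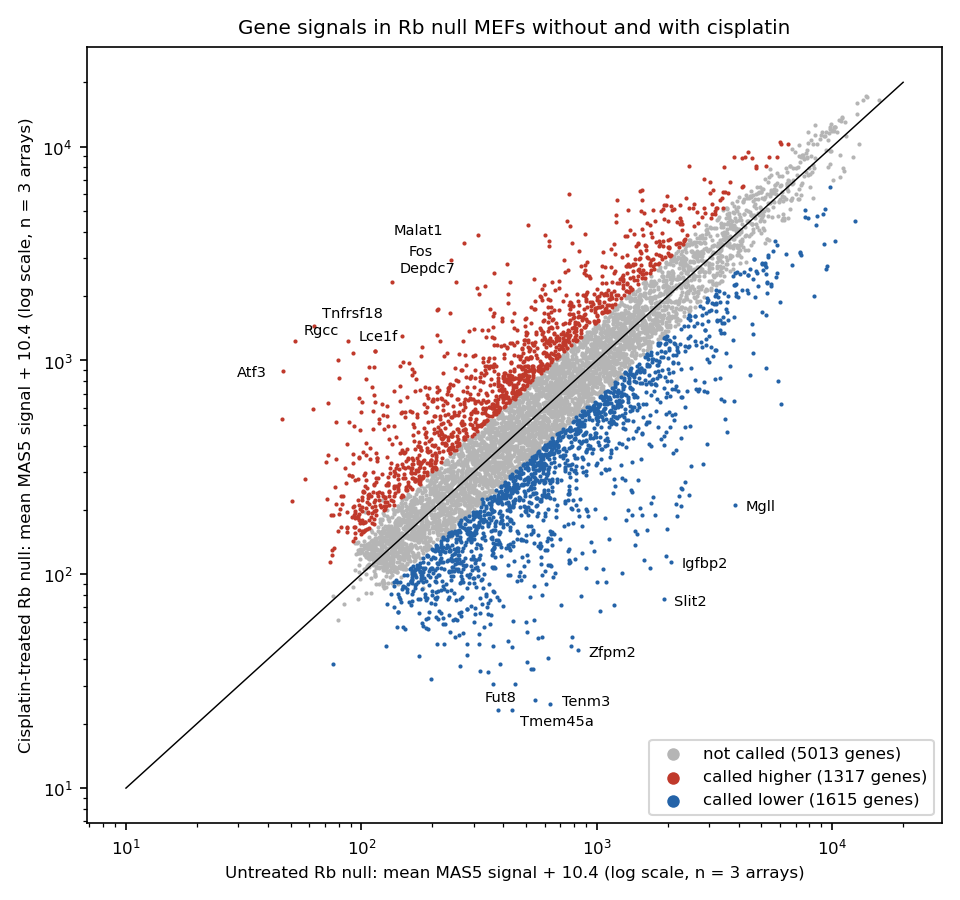
Mean MAS5 signal + 10.4 of each of 7945 genes in untreated (horizontal axis, log scale) and cisplatin-treated (vertical axis, log scale) Rb null MEFs, 3 arrays each; the line marks equal signal, and red and blue points are the 1317 genes called higher and the 1615 called lower. The cloud of falling genes reaches farther from the line, to Tenm3, Fut8 and Tmem45a, whose treated signals lie near the bottom of the scale.

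The strongest rises were in genes with low signals before treatment. Rgcc, a regulator of the cell cycle, went from 57.3, 23 and 45.2 to 1322, 1134 and 1198, a change of 4.61 (SE 0.23) or 24.5-fold with an adjusted p of 3.5e-10. Tnfrsf18, the TNF receptor family member GITR known from T cells, went from 60.3, 49.8 and 47.6 to 1405, 1482 and 1416 (4.53, SE 0.16). Atf3, a stress-induced bZIP transcription factor, went from 62.2, 32.1 and 14 to 1035, 925 and 693 (4.39, SE 0.29). In all 3 the groups were separated by a wide gap, although the untreated Atf3 signals differed among themselves by more than 4-fold. Depdc7 followed with 4.13 (SE 0.15), from 142, 129 and 102 to 2492, 2269.8 and 2219.

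Malat1, a nuclear long non-coding RNA, stood at 177, 249.5 and 362 in untreated and 2560.5, 4240.5 and 3776 in treated cells, a rise of 3.72 (SE 0.23). Fos, a subunit of the AP-1 transcription factor, rose from 265, 248 and 174 to 2918, 2960.1 and 2963 (3.65, SE 0.12), and its 3 treated arrays were almost equal. Procr, the protein C receptor of the coagulation system, rose from 252, 332 and 325 to 3237, 4095 and 4191 (3.62, SE 0.12). Secreted proteins were among the leaders too. Cxcl1, a chemokine that draws neutrophils, rose from 86.6, 85.7 and 72.7 to 1106, 993 and 1107 (3.55, SE 0.14). Gal, the neuropeptide galanin, rose from 90.4, 56.6 and 63.9 to 791, 789 and 883 (3.39, SE 0.16). Plau, the urokinase that activates plasminogen, rose from 118, 86.9 and 108 to 1137, 1031 and 1124 (3.28, SE 0.16). The other genes of the 15 largest rises were Lce1f, a protein of the cornified envelope (3.81), Fcgbp, which binds the constant part of IgG (3.76), Zfp688 (3.62), Smpdl3b, a relative of acid sphingomyelinase (3.28), and Atg9b, a membrane protein of autophagy (3.28).

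The largest falls took well-expressed genes to low signals. Tenm3, a teneurin that links neighbouring cells, dropped from 642, 566 and 657 to 15.1, 22.6 and 5.00, a change of -4.75 (SE 0.22) or 26.9-fold with an adjusted p of 2.1e-10. Slit2, a secreted guidance cue for axons and migrating cells, dropped from 2121, 1739 and 1887 to 58.9, 66 and 73 (-4.66, SE 0.10). Fut8, the enzyme that adds the core fucose to N-glycans, dropped from 547, 545 and 516 to 5.90, 7.20 and 33.2 (-4.56, SE 0.28). The treated arrays of Tenm3 and Fut8 scatter over several-fold and lie near the 10.4 that was added before taking logs, so the size of these falls depends on that constant. Every untreated array of both genes was above 500.

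Mgll, the lipase that breaks down the endocannabinoid 2-arachidonoylglycerol, fell from 3732, 3992 and 3844 to 226, 213 and 164 (-4.21, SE 0.15). Igfbp2, which binds insulin-like growth factors, fell from 1950.1, 2144 and 2061 to 97.5, 98.6 and 114 (-4.18, SE 0.085). Pappa, the protease that frees IGF from Igfbp4, fell from 1122, 1223 and 1180.5 to 71, 63.6 and 49.6 (-4.06, SE 0.11). Both regulators of IGF supply thus lost more than 16-fold of their signal. Adam12, a membrane metalloprotease, fell from 2003, 1990.3 and 1880.3 to 123, 106 and 103 (-4.02, SE 0.099). Tmem45a (-4.24), the GATA cofactor Zfpm2 (-4.23), the RNA-binding splicing regulator Celf2 (-4.11), the organic anion transporter Slco3a1 (-4.07), the zinc finger gene Zfp521 (-3.98), Ankrd44 (-3.96), the cyclin-dependent kinase Cdk14 (-3.94) and the ubiquitin-conjugating enzyme Ube2e2 (-3.94) complete the 15 largest falls.

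**Figure D2:**
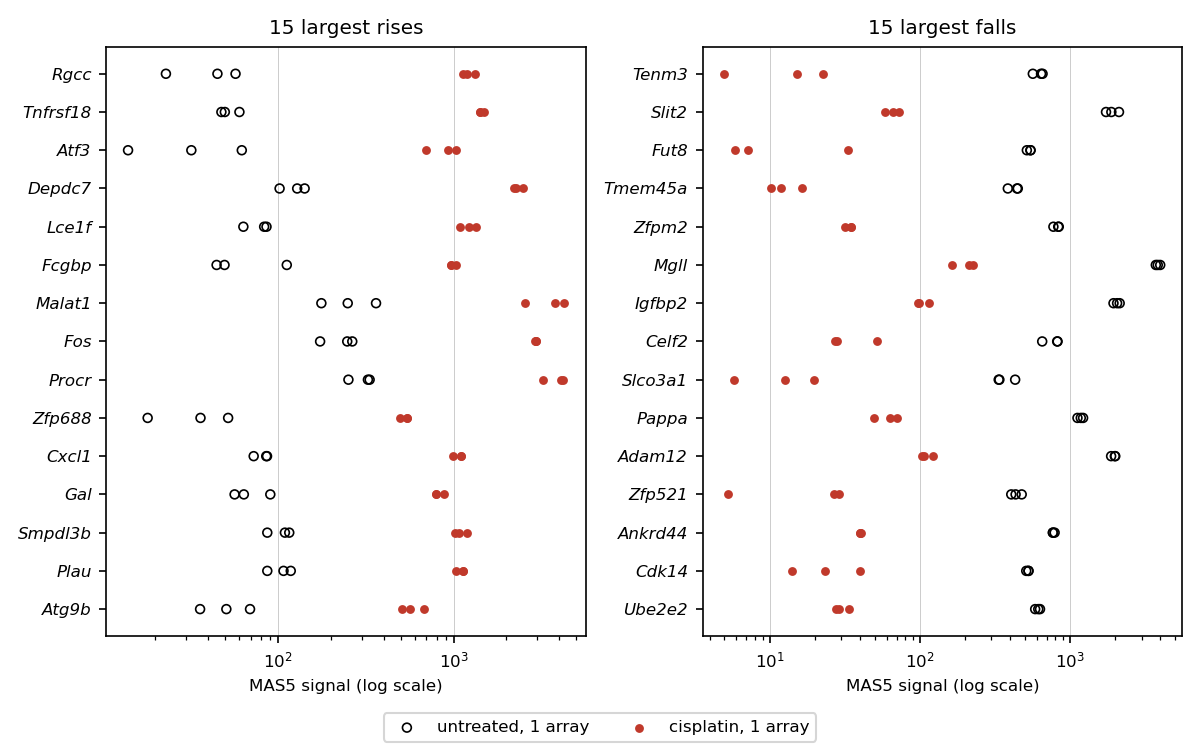
MAS5 signal (log scale) of the 15 genes with the largest rises (left) and the 15 with the largest falls (right) in Rb null MEFs, with 1 point per array: open circles are the 3 untreated arrays and red points the 3 treated ones. Only called genes whose treated arrays lie apart from the untreated arrays were ranked, so that separation was a condition of selection. The spread within a group is widest where signals are below about 50.

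Genes were then read by function in 46 lists, 1283 of whose 1457 entries are on the array; only genes that passed the filter on low signals were tested, and a few genes stand on more than 1 list. The medians ran from -1.84 for collagens to 0.96 for inflammatory genes among the functional lists with at least 10 tested genes.

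**Figure D3:**
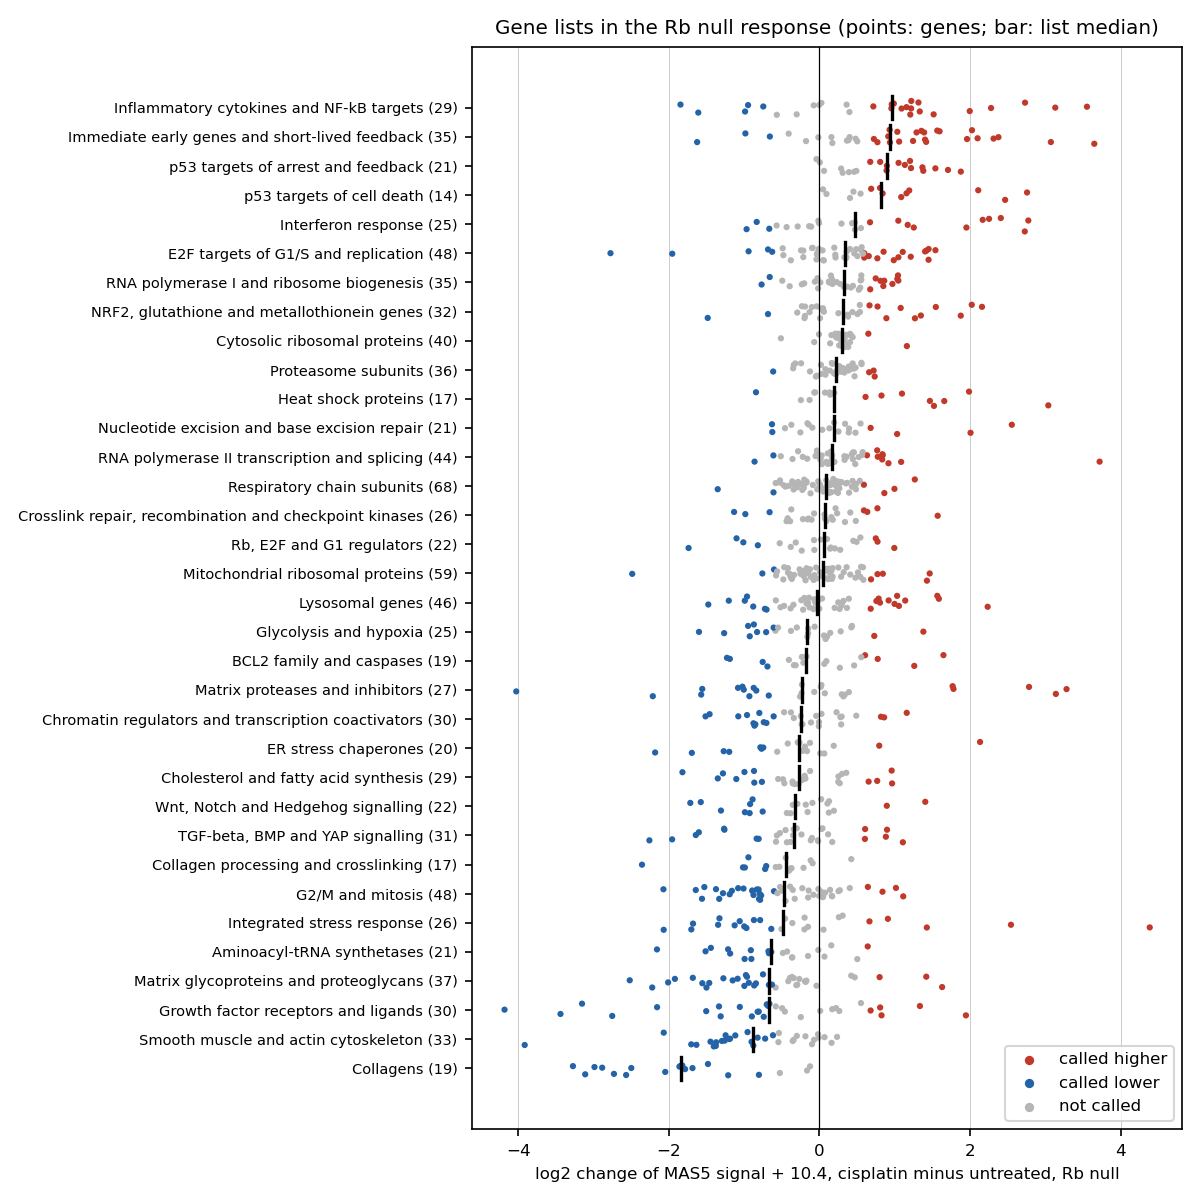
Change of log2(MAS5 signal + 10.4) in Rb null MEFs, cisplatin minus untreated (horizontal axis), for the tested genes of 34 functional lists, ordered by median from inflammatory genes at the top to collagens at the bottom. Points are genes, coloured by call, black bars are list medians, and the number tested stands in parentheses.

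The targets of p53 for arrest and feedback rose as far as they changed. Of 24 genes listed 21 were tested, and limma called 13 higher and 0 lower (0 lower also at an unadjusted p under 0.05), with a median of 0.89. Trp53inp1, a p53 cofactor of stress and autophagy, rose from 1349, 1319 and 1388 to 4339.9, 5399.5 and 5317 (1.88, SE 0.097). Mdm2, the ubiquitin ligase that destroys p53, rose from 4149.6, 4173 and 4397 to 7121, 10532 and 9068 (1.05, SE 0.11). Ppm1d, the phosphatase that switches the damage signal off, rose by 1.37 (SE 0.097), Btg2, an antiproliferative cofactor, by 1.20 (SE 0.15), and Gadd45a, a damage-induced growth arrest protein, by 1.13 (SE 0.17).

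Cdkn1a, which encodes the cyclin-dependent kinase inhibitor p21 and is the best known arrest gene of p53, was already bright before the drug. On the probe set used here its signals were 6893, 7649 and 7161 untreated and 9886, 10399 and 10204 treated, with all treated arrays above all untreated ones but a change of only 0.49 (SE 0.056, adjusted p = 2.3e-06), under the 1.5-fold minimum. Its other tested probe set gave 1.48 (SE 0.11, adjusted p = 2.2e-08), so the size of the Cdkn1a change differed between its probe sets while the direction did not. Zmat3 (-0.04) and Ephx1 (0.01) were not called, and neither was Mdm4 on the probe set used (0.06), although its other probe set was called higher (1.01).

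Of the p53 targets that act in cell death, 9 of 14 tested rose and 0 fell in the limma fit (0 lower at an unadjusted p under 0.05), with a median of 0.82 that dropped to 0.55 when every probe set of these genes was counted. Perp, a membrane protein of desmosomes and of p53-dependent death, rose from 396, 277 and 301 to 2343, 2100.4 and 2249.8 (2.76, SE 0.14). Pmaip1, which encodes the BH3-only protein Noxa, rose from 861, 703 and 716 to 5054, 4078 and 3663 (2.47, SE 0.11). Fas, the death receptor, rose from 128, 159.5 and 149.9 to 579, 640.3 and 775 (2.11, SE 0.15). These 3 genes each rose at least 4-fold, whereas Bbc3, which encodes the BH3-only protein Puma, rose by 0.69 (SE 0.10), and Apaf1 (0.41) and Bid (0.09) were not called.

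Of 19 tested genes of the BCL2 family and the caspases 4 were called higher and 4 lower. Each share is 21.1%, near the 16.6% and 20.3% of all genes. Casp6, an executioner caspase, rose from 335, 407 and 361 to 1196, 1183 and 1130.1 (1.65, SE 0.10). Birc2, an inhibitor of apoptosis, rose by 1.26 (SE 0.15), and the survival gene Mcl1 rose by 0.77 (SE 0.070) on the probe set used, although only 3 of its 6 tested probe sets were called. Bcl2, the founding survival gene, fell from 235, 236 and 202 to 63, 122 and 93 (-1.23, SE 0.25), with Bok (-1.19), Bcl2l1 (-0.75, with 1 of its 3 tested probe sets called) and Bcl2l2 (-0.69). The 2 tested probe sets of Bcl2l2 disagree, since the other one was called higher (0.71, adjusted p = 0.0086).

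Genes of S phase and genes of mitosis went in different directions. Among the E2F targets of G1/S and replication, 14 of 48 tested rose and 5 fell, with a median of 0.34. Among the genes of G2/M and mitosis, 4 of 48 rose and 21 fell, with a median of -0.47. The shares called are 29.2% higher and 10.4% lower for the first list and 8.33% higher and 43.8% lower for the second, beside 16.6% and 20.3% of all genes.

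Cdc6, which loads the replicative helicase onto origins, rose from 348, 366 and 358 to 1309, 872 and 858 (1.45, SE 0.39, adjusted p = 0.0048), with array a above b and c. Orc1, the largest subunit of the origin recognition complex, rose from 197, 197 and 189.9 to 597, 509 and 514 (1.42, SE 0.19). Ccne2, a cyclin of the G1/S transition, rose from 647, 546 and 642 to 1694, 1656 and 1546 (1.40, SE 0.13). Cdt1, the partner of Cdc6 in licensing (1.54), Slbp, which binds histone mRNA (1.45), the single-strand binding subunit Rpa2 (1.21) and the primase subunit Prim1 (1.05) rose as well. The 5 genes that fell include the catalytic subunit of the polymerase that starts each fragment: Pola1 dropped from 662, 544 and 595 to 88.1, 63.8 and 86.1 (-2.77, SE 0.15), and Prim2, the other primase subunit, from 482, 404 and 415 to 89.6, 119 and 105 (-1.95, SE 0.12). Top2a (-0.94), Rrm1 (-0.68, with 1 of 2 tested probe sets called) and Tk1 (-0.63) also fell. Pcna, the sliding clamp, was 0.56 (SE 0.050) and just under the 1.5-fold minimum.

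To show what sits in front of such genes, RefSeq promoter windows (mouse build GRCm38.p6, 250 bases before to 50 after the start) were available for 6498 of the 7945 tested genes and were searched on both strands. The E2F letters TTTCCCGC, TTTGGCGC or TTTCGCGC occur in 4.54% of all these windows and in 14 of the 40 windows of the replication list (35.0%): in 6 of 13 of its rising genes and 1 of 4 of its falling ones. The list was written as E2F targets, so its share was not taken as a result. Among all genes with a window, the E2F letters occur in 5.01% of those that rose and 4.27% of those that fell. Stretches of 60 bases are printed for 2 genes that rose and for the 1 falling gene with a match, with the match in capitals.
Orc1 (chr4:108579394-108579453, plus strand): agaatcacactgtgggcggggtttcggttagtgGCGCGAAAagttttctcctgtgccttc
Cdc6 (chr11:98907981-98908040, plus strand): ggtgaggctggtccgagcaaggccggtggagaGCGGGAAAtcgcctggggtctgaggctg
Pola1 (chrX:93632266-93632325, minus strand): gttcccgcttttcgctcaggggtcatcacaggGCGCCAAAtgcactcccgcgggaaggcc
The match shown is another of the 3 E2F spellings in each gene.

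The mitotic genes that fell include kinases, motors and scaffolds of the spindle. Cenpf, a kinetochore protein, fell from 807, 859 and 809 to 186, 173 and 208 (-2.07, SE 0.11), although the other of its 2 tested probe sets gave -0.13 and was not called. Plk1, the polo-like kinase of mitotic entry, fell from 1392, 1545 and 1536 to 429, 505 and 480.1 (-1.64, SE 0.12). Kif11, the kinesin that pushes spindle poles apart, fell from 449.7, 451 and 439 to 159.7, 136 and 149.5 (-1.53, SE 0.10). Ttk, the spindle checkpoint kinase (-1.56), Nusap1, a spindle protein (-1.33), Anln, a scaffold of the cleavage furrow (-1.19), and the mitotic transcription factor Foxm1 (-0.77, with 2 of 3 tested probe sets called) fell with them. Aurka (-0.89) and Ube2c (-1.16), which drives cyclin destruction, fell, while Ccna2 (-0.01), Aurkb (0.04) and Mad2l1 (0.05) stayed near 0 and Cdk1, the mitotic kinase itself, was -0.52 and not called.

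The 4 mitotic genes that rose were Kifc1, a minus-end kinesin (1.11, SE 0.11), Cdc20, the activator of the anaphase-promoting complex (1.02, SE 0.081), the kinetochore gene Spc25 (0.84, SE 0.15) and Pttg1, which encodes securin (0.64, SE 0.059, with 2 of 3 tested probe sets called). Cdc20 read 2644, 2573 and 2411 untreated and 5108, 5292 and 5054 treated, and its groups do not overlap.

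The cell cycle homology region (CHR), letters TTTGAA, lies before many mitotic genes. It occurs in 13.9% of all windows and in 29 of the 41 windows of the mitotic list (70.7%), which holds for 16 of the 19 windows of falling genes and for 3 of the 4 of rising genes. Among all genes with a window, the CHR letters occur in 14.0% of those that rose and 14.6% of those that fell. The stretches below come from 3 genes that fell and from Cdc20, which rose, with the CHR letters of either strand in capitals.
Kif11 (chr19:37376322-37376381, plus strand): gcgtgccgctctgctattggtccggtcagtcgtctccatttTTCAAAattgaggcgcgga
Ube2c (chr2:164769869-164769928, plus strand): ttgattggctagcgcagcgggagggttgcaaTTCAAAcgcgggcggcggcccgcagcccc
Prc1 (chr7:80294416-80294475, plus strand): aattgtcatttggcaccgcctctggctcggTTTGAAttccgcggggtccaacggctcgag
Cdc20 (chr4:118437344-118437403, minus strand): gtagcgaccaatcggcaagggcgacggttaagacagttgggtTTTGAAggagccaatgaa
Prc1, which bundles the midzone of the spindle, fell by 0.89 on the log2 scale (from 1763, 1826 and 1908 to 951, 926 and 1090.0). The CHR letters thus also stand before genes of either direction.

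Among the regulators of Rb, E2F and G1, 3 of 22 tested rose (13.6%) and 4 fell (18.2%). These shares are near the 16.6% and 20.3% of all genes. The rises were the kinase inhibitor genes Cdkn2c (0.99, SE 0.12) and Cdkn2a (0.77, SE 0.12) and the phosphatase gene Cdc25a (0.75, SE 0.12). The falls were Cdkn1b, which encodes p27 and went from 563, 480.0 and 529.9 to 153, 133 and 166 (-1.74, SE 0.11), the inhibitors Cdkn1c (-1.10) and Cdkn2d (-1.01), and the Rb relative Rbl2 (-0.82). The inhibitors of cyclin-dependent kinases thus went both ways. E2f3 (0.21), E2f4 (-0.23) and Rbl1 (-0.07) were not called.

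Most DNA repair genes were not called. Of 21 tested genes of nucleotide and base excision repair 4 rose and 2 fell, and of 26 genes of crosslink repair, recombination and checkpoint signalling 4 rose and 3 fell. The shares that rose are near the background and the shares that fell are below it. Mbd4, a glycosylase for T opposite G, rose from 166, 187 and 151 to 1074, 976 and 1056 (2.55, SE 0.13). Ercc5, the endonuclease XPG that cuts beside a bulky lesion, rose from 335, 342 and 328 to 1336, 1429 and 1366 (2.01, SE 0.092). Msh6, a mismatch recognition subunit, rose from 850.4, 879.8 and 905 to 2891, 2521 and 2491 (1.57, SE 0.074). Chek1 (0.64) and Chek2 (0.77), the checkpoint kinases, rose, while the kinase gene Atr (-0.98, SE 0.15) and Fancl, the ubiquitin ligase of the Fanconi pathway (-1.13, SE 0.14), fell. The damage recognition gene Xpc (-0.14), the crosslink nuclease gene Ercc4 (-0.25) and Brca1 (0.16) were not called.

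In the integrated stress response, phosphorylation of eIF2 slows translation and lets ATF4 through, which raises genes for amino acid synthesis, amino acid transport and tRNA charging. Of 26 tested genes of this response 5 rose and 12 fell, with a median of -0.48. Besides Atf3, the genes that rose were Ppp1r15a, which encodes the eIF2 phosphatase subunit GADD34 and went from 549, 706 and 589.7 to 3486, 3759.7 and 3601 (2.54, SE 0.093), Ddit3, which encodes CHOP and went from 419, 281 and 316 to 911, 897 and 939 (1.43, SE 0.13), Cebpb (0.91) and the amino acid transporter subunit Slc3a2 (0.66). Atf4 itself read 3289.9, 3199 and 3373 untreated and 3509, 3494 and 3245 treated and was not called (0.05, SE 0.067, adjusted p = 0.49).

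All of the serine and glycine synthesis genes on the list fell: Phgdh, the first enzyme of serine synthesis, went from 5542, 5046 and 5159.5 to 2173, 2088 and 1922 (-1.34, SE 0.068), Psph from 774, 681 and 796 to 224, 222 and 235 (-1.68, SE 0.12), and Psat1 (-0.998) and Shmt2 (-1.13, with 3 of 4 tested probe sets called) followed. Asns, asparagine synthetase, fell from 2762, 2866 and 2956 to 1139, 1499 and 1500.4 (-1.06, SE 0.097). Chac1, which degrades glutathione, fell from 692, 679 and 633 to 179.6, 234 and 185 (-1.70, SE 0.11), and Nupr1, a stress-responsive chromatin protein, by 0.87 on the log2 scale. Aldh18a1, an enzyme of proline synthesis, had the largest fall of the list (-2.07, SE 0.31), but untreated array 1 read 262 against 766 and 884 on the others. Trib3 (-0.50) was not called, nor was Sesn2 on the probe set used (0.31), while its other probe set was called higher (1.01).

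The aminoacyl-tRNA synthetases, which charge tRNAs with their amino acids, went the same way, with 1 of 21 tested called higher, 11 lower and a median of -0.64; 3 of them stand on the stress list too. Eprs, which charges glutamate and proline tRNAs, fell from 1443, 1615 and 1529.7 to 317, 324 and 365 (-2.16, SE 0.078). Iars fell from 2333, 2538 and 2598 to 792, 930.4 and 1020.4 (-1.44, SE 0.11), Lars by 1.18 and Tars by 0.90 on the log2 scale. Rars was the gene that rose, by 0.64 (SE 0.062), a call that quantile normalization did not keep, and Qars (-0.01), Kars (0.07) and Hars (0.16) stayed near 0.

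The composite element that ATF4 binds with C/EBP partners, searched as TGATGNAAN on both strands, occurs in 2.59% of all windows, in 7 of the 23 windows of the stress list (30.4%) and in 5 of the 14 of the synthetases (35.7%). Among all genes with a window, it occurs in 3.43% of those that rose and 3.81% of those that fell. It stands before 1 of the 5 windows of rising stress genes, that of Atf3, and before 4 of the 10 of falling ones. The printed stretches thus show matches to this pattern before the most strongly rising gene and before genes that fell.
Atf3 (chr1:191183414-191183473, minus strand): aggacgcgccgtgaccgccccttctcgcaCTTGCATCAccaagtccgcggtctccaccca
Chac1 (chr2:119351022-119351081, plus strand): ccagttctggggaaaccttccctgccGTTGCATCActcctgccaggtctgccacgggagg
Asns (chr6:7693210-7693269, minus strand): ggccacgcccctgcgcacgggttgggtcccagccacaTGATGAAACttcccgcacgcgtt
Nupr1 (chr7:126625551-126625610, minus strand): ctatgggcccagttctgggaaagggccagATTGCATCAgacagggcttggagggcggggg
Tars (chr15:11399659-11399718, minus strand): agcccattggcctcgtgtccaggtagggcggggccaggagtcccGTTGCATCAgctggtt
Capitals mark the ATF4 letters; each stretch is read 5′ to 3′ on the strand of its gene and lies upstream of the start.

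**Figure D4:**
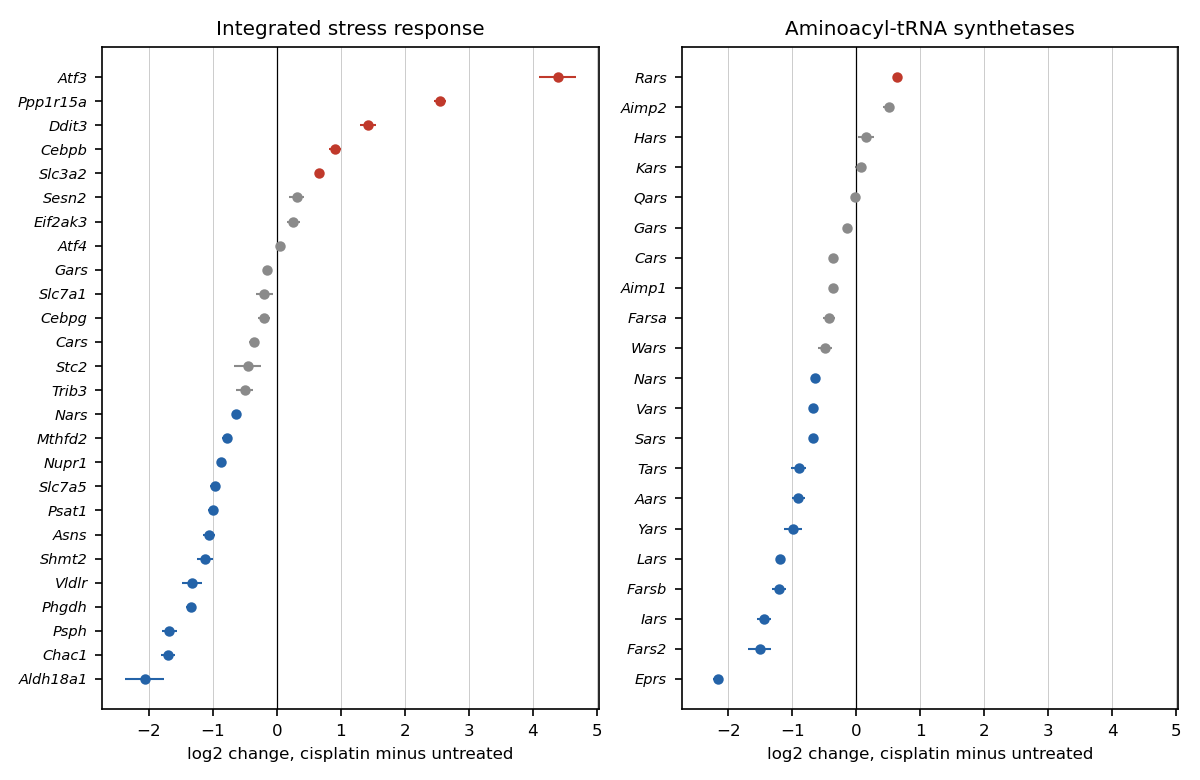
Change of log2(MAS5 signal + 10.4), cisplatin minus untreated (horizontal axis), of each tested gene of the integrated stress response (left) and of the aminoacyl-tRNA synthetases (right) in Rb null MEFs; bars are the SE of the fit, red genes rose, blue genes fell and grey genes were not called. Atf3, Ppp1r15a and Ddit3 stand far to the right of a list of which 12 genes fell, and of the synthetases Rars is the gene called higher.

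Of 20 genes of the endoplasmic reticulum stress response 2 rose and 7 fell. Dnajb9, a co-chaperone of the ER lumen, rose from 912, 829.6 and 897 to 4154, 3566 and 3977 (2.13, SE 0.071). The sensor gene Atf6 fell from 501, 468 and 469 to 82.9, 128 and 87.4 (-2.18, SE 0.14), and Xbp1, the transcription factor spliced under ER stress, from 2527, 2589 and 2689 to 806, 712 and 883 (-1.69, SE 0.074). Hspa5, the chaperone BiP that marks the response, read 7948, 8889.5 and 8499.7 untreated and 7692, 9909.5 and 9015 treated (0.06, SE 0.092, adjusted p = 0.56), with overlapping groups.

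Heat shock genes rose more often, 8 of 17 against 1 that fell. Hspa1a, an inducible HSP70, rose from 179, 191 and 237 to 1977, 1567 and 1656 (3.04, SE 0.13), and its near-identical neighbour Hspa1b, whose probes may share transcripts with it, by 1.66. The small heat shock genes Cryab (1.99, SE 0.095), Hspb8 (1.52) and Hspb1 (1.10) rose, while the constitutive Hspa8 (-0.25) and the mitochondrial Hspd1 (0.07) were not called. In the list of NRF2 targets, glutathione enzymes and metallothioneins, 10 of 32 rose and 2 fell. The metal-binding Mt1 rose from 669, 766 and 706 to 3161, 2519 and 3156 (2.02, SE 0.089) and Mt2 by 1.55 (SE 0.17); Hmox1, heme oxygenase, rose from 538, 585 and 605 to 1922, 2175 and 2349 (1.88, SE 0.093), Gpx3, a secreted glutathione peroxidase, by 2.16, and Gclc, the rate-limiting enzyme of glutathione synthesis, by 1.08. The drug efflux pump gene Abcc1 fell from 2187, 1713 and 2003 to 797, 661 and 634 (-1.48, SE 0.095) and the copper pump gene Atp7a fell by 0.68 on the log2 scale on 1 of its 2 tested probe sets (the other was 0.09); the copper importer Slc31a1, a known entry route of cisplatin, was -0.19 and not called, as was the NRF2 target Nqo1 (0.03).

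Immediate early genes, whose mRNAs are short-lived and induced soon after a stimulus, mostly rose. Of 35 tested genes of this kind, 22 rose and 3 fell, with a median of 0.94. Nr4a1, an orphan nuclear receptor, rose from 514, 502 and 477 to 3792, 4895 and 4172 (3.07, SE 0.11). Fosb rose from 102, 99.6 and 102 to 621, 522 and 572 (2.38, SE 0.12), Junb from 312, 340.5 and 374 to 1719, 1814 and 1678 (2.31, SE 0.091) and Egr1, a zinc finger factor of growth signals, from 1259.5, 1647 and 1729 to 6955, 5634 and 6281 (2.03, SE 0.12). With Fos, Jun (1.24, with 1 of its 2 tested probe sets called) and Fosl1 (1.596), this makes 5 of the 7 Fos and Jun family genes tested, and there were rises in the MAP kinase phosphatases Dusp6 (1.40), Dusp2 (1.06) and Dusp1 (1.03). Jund (0.17) and Fosl2 (0.48) were not called, and Srf, the factor that switches many of these genes on, fell from 1276, 1065 and 1239 to 367, 409 and 363 (-1.62, SE 0.085).

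Inflammatory genes mostly rose. Of 29 tested 17 rose, 5 fell and the median was 0.96; with the dim genes of the list left in it was 0.40. Icam1, an adhesion molecule for leukocytes, rose from 154, 139 and 121 to 1302, 1373 and 1190.3 (3.13, SE 0.12). Lif, a cytokine of the IL-6 family, rose from 209, 356 and 354 to 1826, 2125 and 2169 (2.73, SE 0.17), and Il6 itself from 81.8, 41.6 and 57.4 to 318, 323 and 329 (2.28, SE 0.18). The prostaglandin enzymes Ptges (2.00) and Ptgs2 (1.21), the chemokine Ccl2 (1.22) and the NF-kB genes Nfkbia (1.32), Nfkb2 (1.16) and Rela (0.96) rose. Cxcl12, a homeostatic chemokine of stromal cells, fell from 3682, 3679 and 3956 to 1342, 1163 and 1192 (-1.61, SE 0.091), and the macrophage growth factor Csf1 by 0.95.

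Interferon-response genes rose in 10 of 25 cases and fell in 3. Ifi202b, a cytosolic DNA-binding protein, rose from 369, 425 and 419 to 2718, 2745 and 3006 (2.77, SE 0.091). The guanylate-binding gene Gbp3 (2.73, SE 0.28) and the GTPase gene Igtp (2.41, SE 0.17) rose, and Tap1, the peptide transporter of antigen presentation, from 281, 274 and 274 to 1322, 1329 and 1418 (2.25, SE 0.097). The guanylate-binding proteins are close paralogs, and their probe sets may share transcripts. The list did not move as a whole: Bst2 (-0.97), Oas1a (-0.83) and Stat2 (-0.67) fell, and Irf7 (0.47), Irf1 (0.43), B2m (-0.11) and the class I gene H2-K1 (-0.57) were not called, although 1 of the 4 H2-K1 probe sets was called higher (0.59).

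Collagens mostly fell. Of 19 tested 16 fell and limma called 0 higher (0 at an unadjusted p under 0.05), with a median of -1.84. The summed signal of the 20 collagen genes on the array went from between 69877 and 72927 on untreated arrays to between 19232 and 19704 on treated ones. The fibrillar chains of skin and bone, Col1a1 (from 8685, 10002 and 9546 to 2776, 2536 and 2661, -1.82, SE 0.076) and Col1a2 (from 12915, 12779 and 11717 to 4481, 4587 and 4323, -1.48, SE 0.052), fell together. Deeper falls were in chains of several kinds. The minor fibrillar chain Col11a1 had the largest, from 1525, 1439 and 1469 to 153, 139 and 139 (-3.27, SE 0.073), and Col8a1 and Col12a1 came next. Another minor fibrillar chain, Col5a1, went from 5684, 6067 and 5785 to 745, 902 and 714 (-2.88, SE 0.085). The beaded-filament chain Col6a3 went from 3439.7, 3617 and 3406 to 485, 585 and 489 (-2.73, SE 0.10). The basement membrane chains Col4a1 (-2.50) and Col4a2 (-2.57), which share a promoter region, fell alike. Col14a1 (-0.12), Col7a1 (-0.16) and Col16a1 (-0.52) were not called. Because the arrays measured RNA of whole cultures, fewer cells of a type and less RNA per cell cannot be told apart, here and in the lists that follow.

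The enzymes that modify and crosslink collagen fell less: 6 of 17 fell and limma called 0 higher (1 at an unadjusted p under 0.05), led by Loxl3, a lysyl oxidase (-2.36, SE 0.10). Serpinh1, the collagen chaperone (-0.38), and Lox (-0.53) were not called, although the other Lox probe set was called lower (-0.79). Of the other matrix glycoproteins and proteoglycans 3 of 37 rose and 20 fell. Ltbp1, which stores latent TGF-beta in the matrix, fell from 2126, 2118 and 2041 to 369, 364 and 339 (-2.52, SE 0.091), the laminin chain Lamc1 from 1143, 1210.1 and 1213 to 223, 249 and 272 (-2.22, SE 0.085), and the thrombospondins Thbs1 (-1.499) and Thbs2 (-1.55) with them. Has1, a hyaluronan synthase (1.63, SE 0.17), Ecm1 (1.42, SE 0.063) and Ogn (0.80) rose, and the small proteoglycans Dcn (-0.31) and Bgn (-0.04) and fibronectin Fn1 (-0.58) were not called; the other Fn1 probe set was called lower (-1.80), and the one used was called lower under quantile normalization (-0.73).

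Matrix proteases and their inhibitors went both ways, 5 of 27 rising and 11 falling. Mmp10, a stromelysin, rose from 61.5, 126 and 103 to 699, 931 and 1129.5 (3.14, SE 0.22), and Mmp13, a collagenase, from 92.9, 80.3 and 87.7 to 689, 620.1 and 669 (2.78, SE 0.13). Plat, the tissue plasminogen activator, rose by 1.78 beside Plau. After Adam12 the falls were led by the aggrecanase Adamts5 (-2.21), the gelatinase Mmp9 (-1.57) and Adam19 (-1.56), and Mmp14 (-0.26), Timp1 (-0.24) and Mmp3 (0.03) were not called, although the other Mmp14 probe set was called lower (-0.82).

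Contractile and actin-binding genes fell in 20 of 33 cases and limma called 0 higher (2 at an unadjusted p under 0.05), with a median of -0.88. Lmod1, an actin nucleator of smooth muscle, fell from 534, 516 and 502 to 25.5, 36.5 and 15.1 (-3.91, SE 0.26), and Vcl, the focal adhesion protein vinculin, from 8685, 8173 and 8216 to 1974, 1968 and 2018 (-2.07, SE 0.064). The alpha-actinins Actn1 (-1.40) and Actn4 (-1.26), filamin Flna (-1.29) and non-muscle myosin Myh9 (-1.25) fell, whereas the cytoplasmic actins Actb (0.16) and Actg1 (-0.02), Acta2 (-0.34) and Tagln (-0.54) were not called. The other tested probe sets of Actn1 fell further (-2.91 and -2.84). The other tested probe set of Actb was called higher (0.94, adjusted p = 2.0e-06).

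Growth factor receptors and ligands fell more often than they rose, 16 against 5 of 30 tested. Igf1r, the IGF receptor, fell from 802, 907 and 821 to 78.2, 60 and 67.8 (-3.44, SE 0.11), Pdgfrb, the PDGF receptor of mesenchymal cells, from 955, 908 and 935 to 134, 112 and 146 (-2.75, SE 0.094), and the ligand Pdgfc from 2210.5, 2317 and 2555 to 302, 286 and 194 (-3.15, SE 0.12). The collagen receptor Ddr2 (-2.15) and the receptor Fgfr2 (-1.31) fell too. Ereg, a ligand of the EGF receptor, rose by 1.95 (SE 0.064), and Egfr (-0.46), Met (0.17) and Pdgfra (-0.25) were not called, although 1 of 5 Egfr probe sets was called lower (-0.69).

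In the TGF-beta, BMP and YAP list 5 of 31 rose (16.1%) and 8 fell (25.8%), beside 16.6% and 20.3% of all genes. The activin chain Inhbb (-2.26, SE 0.11), the ligand Tgfb3 (-1.96, SE 0.094) and the coactivator Yap1 (-1.27, SE 0.081) fell. The BMP antagonist Grem1 (1.11, SE 0.098) and the inhibitory Smad7 (0.88) rose. The YAP targets Ccn1 (-0.30) and Ccn2 (-0.24) were not called, while Ankrd1 (-1.26) and Amotl2 (-0.81) fell. In the Wnt, Notch and Hedgehog list 2 of 22 rose and 8 fell, with Notch3 up by 1.41 (SE 0.11), Notch2 at -0.92, the Wnt receptor Fzd2 at -1.71 (SE 0.13) and the Hedgehog factor Gli3 at -1.57.

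Genes of transcription and ribosome assembly seldom fell, beside 16.6% of all genes that rose and 20.3% that fell. Of 44 tested genes of RNA polymerase II transcription and splicing 9 rose (20.5%, near the share of all genes) and 2 fell (4.55%). Besides Malat1 the genes that rose included Cdk9, the elongation kinase of P-TEFb (0.92, SE 0.085), its cyclin Ccnt1 (0.83) and the largest polymerase subunit Polr2a (0.84, SE 0.088, with 1 of its 2 tested probe sets called), while Cdk7, the kinase of the initiation factor TFIIH, fell (-0.86, SE 0.094, with 1 of 2 called). The splicing factor genes Srsf1 (-0.05), Srsf3 (0.11) and Hnrnpk (0.11) were not called on the probe sets used, but 1 of 6 Srsf1 probe sets (-0.89) and 2 of 6 of Srsf3 (-1.15 and -0.68) were called lower. Of 35 genes of RNA polymerase I and ribosome assembly 9 rose (25.7%) and 2 fell (5.71%), and the rises were led by Gnl3, the nucleolar protein nucleostemin (1.05, SE 0.083). Chromatin regulators and coactivators fell in 11 of 30 cases and rose in 3, with the coactivator Ncoa1 at -1.51 (SE 0.26) and the DNA methyltransferase Dnmt3a at -1.46 (SE 0.17), while Jmjd1c, of the histone demethylase family, rose from 545, 491 and 568 to 1021, 1236 and 1384 (1.16, SE 0.13).

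In large housekeeping complexes few genes were called. The 40 cytosolic ribosomal protein genes had 37 estimates above 0 and a median of 0.29 (0.11 after quantile normalization), but limma called 2 higher, Rps25 (1.16, SE 0.086) and Rps6 (0.65, SE 0.19), and 0 lower (1 at an unadjusted p under 0.05). Of 59 mitochondrial ribosomal genes 5 rose (10 after median centring) and 3 fell, of 68 respiratory chain genes 4 and 2, and of 36 proteasome genes 3 and 1, all below the shares of all genes. Single members stood out all the same. Mrps28 fell from 619, 571 and 634 to 107, 94.8 and 98.7 (-2.49, SE 0.095), Ndufs4, a subunit of complex I, fell by 1.35, and Ndufb6, another, rose from 2055, 2224 and 2074 to 5236, 4756 and 5349 (1.27, SE 0.069).

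Of 46 lysosomal and autophagy genes 12 rose and 7 fell: the protease gene Ctsf rose from 192, 241 and 209 to 1111, 1011 and 1006 (2.23, SE 0.098), the autophagy genes Map1lc3b (1.03) and Sqstm1 (0.998) rose, and the galactosidase Glb1 fell (-1.47). Cholesterol and fatty acid synthesis had 4 rises (13.8%) and 8 falls (27.6%) among 29, beside 16.6% and 20.3% of all genes. The falls include the regulator Srebf2 (-1.28, SE 0.092) and the fatty acid elongase Elovl6 (-1.82, SE 0.13). Glycolysis and hypoxia genes had 2 rises and 8 falls among 25, with Adm, a hypoxia-induced vasodilator peptide, down from 1006, 1013 and 1083 to 341, 299.9 and 365 (-1.599, SE 0.092) and the oxygen sensor Egln3 up (1.38, SE 0.10); Ldha (-0.15) and Pgk1 (-0.06) were not called. Of 9 tested circadian genes Nfil3 fell (-0.88) and limma called 0 higher (3 at an unadjusted p under 0.05), and of 6 histone and chromatin architecture genes Hmgb2 rose (0.62) and limma called 0 lower (1 at an unadjusted p under 0.05).

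Markers of macrophages and leukocytes mostly fell. Of 21 tested 2 rose and 15 fell, with a median of -1.01, and their summed signal went from between 12291 and 12519 on untreated arrays to between 8491 and 8801 on treated ones. Cd52, a leukocyte surface peptide, fell from 377, 464 and 389 to 76.9, 18.3 and 19.1 (-3.32, SE 0.35). C1qa, a complement subunit made by macrophages, fell from 449.5, 529.8 and 519 to 74.2, 113 and 126 (-2.18, SE 0.15), and the F4/80 antigen gene Adgre1 from 641, 518 and 505 to 139.9, 114 and 122 (-2.06, SE 0.14). Lyz2, the macrophage lysozyme whose probes may also see its near-identical neighbour Lyz1, fell by 1.01. Csf1r, the receptor that keeps macrophages alive, read 1519, 1443 and 1358 untreated and 1718, 1619 and 1727 treated and was not called (0.23), and Cd68 (1.33) and Cd14 (1.31) rose. The part of these cells in the falls of other genes was not tested.

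Fibroblast markers fell in 6 of 13 cases, with Prrx1, a mesenchymal transcription factor, at -2.07 (SE 0.074) beside Pdgfrb and the collagens named above, and limma called 0 higher (1 at an unadjusted p under 0.05). The 4 epithelial markers called were all higher, among 6 that could be tested: besides Lce1f and Perp these were the keratins Krt19, from 185, 113 and 171 to 889, 792 and 926 (2.42, SE 0.16), and Krt18, from 52.9, 33.2 and 35.5 to 213, 210.4 and 207 (2.13, SE 0.23), while the defining genes Cdh1 and Epcam averaged at most 24.8 in either group. Acta1, skeletal muscle actin, fell from 1714, 1678 and 1759 to 206, 269.8 and 183 (-2.92, SE 0.12). Actc1, cardiac muscle actin, fell too (-0.66), a call that quantile normalization and median centring did not keep. Tnnc1 (1.03) and Tnnt2 (0.61, with 1 of 2 tested probe sets called) rose. Of the remaining markers Cebpa, a factor of fat and myeloid cells, rose from 142, 119.8 and 145 to 624, 637 and 653 (2.16, SE 0.13), Sox9, a factor of cartilage, by 1.42 and the neuronal tubulin Tubb3 by 1.52, while Mbp (-1.98), Fabp7 (-1.78) and Col2a1 (-1.45) fell. Lpl, the other adipocyte marker tested, also fell (-0.71), a call that quantile normalization did not keep.

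The Rb null response was set against that of wildtype cells, which used other arrays, to see where it differs. Over 7945 genes the changes in the 2 genotypes correlated with a Pearson's r of 0.71 and a Spearman's rho of 0.66, across genes, which are not independent replicates. The difference of the responses itself, tested in the same limma fit, was called for 1885 genes: 691 (8.70%) had a higher and 1194 (15%) a lower response in Rb null than in wildtype cells. This excess of lower responses was not kept under other scalings: counted in probe sets it was 1173 higher against 1959 lower (37.5% of calls higher), but 1542 against 1535 (50.1%) after quantile normalization and 1678 against 1434 (53.9%) after median centring. In 796 of these genes the estimates of both genotypes had the same sign and the Rb null one was larger, in 291 it was smaller, and in 798 the estimates had opposite signs, 546 of them with a fall in Rb null cells. Every such difference also carries the other make-up of the untreated wildtype cells described above, which cannot be told apart from it; it cannot be computed without those arrays.

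Among the mitotic genes, of 48 tested, limma called 43 with a lower response in Rb null cells and 0 with a higher one (0 higher at an unadjusted p under 0.05), and the median change was -0.47 in Rb null against 0.81 in wildtype cells. Plk1 went from 304, 234 and 326 to 431, 498 and 514 in wildtype cells, while it fell in Rb null cells as given above, a difference of -2.37 (SE 0.17, adjusted p = 1.3e-07). The untreated Rb null signals of this gene were above the treated wildtype ones, and the treated Rb null signals overlapped them. Cdc20, which rose in Rb null cells, had a wildtype estimate of 1.67, from 717, 666 and 552 to 2070.1, 2093 and 2019.7, and its difference was -0.65 (SE 0.12, adjusted p = 5.2e-04), -0.53 and under the 1.5-fold minimum after median centring. Of the 48 replication genes 23 had a lower response and 1, Orc1, a higher one, a call lost when untreated wildtype array 2, treated Rb null array a or treated wildtype array c was left out, with medians of 0.34 in Rb null and 0.95 in wildtype cells; Pola1 was -2.77 against -0.51 and Pcna 0.56 against 1.20. Of 26 genes of crosslink repair and checkpoints 11 were called lower in the difference (7 after median centring) and 0 higher (0 at an unadjusted p under 0.05).

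Of the 21 arrest genes of p53 5 had a higher and 3 a lower response (1 lower after median centring), of the 14 death genes 3 and 2. Mdm2 differed by -0.13 (SE 0.16, adjusted p = 0.57) and Perp by 0.36 (SE 0.20, adjusted p = 0.18), neither of which was called, whereas Pmaip1 was 2.47 in Rb null and 0.90 in wildtype cells, a difference of 1.57 (SE 0.16, adjusted p = 3.3e-06).

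Of the 26 stress response genes 5 had a higher and 3 a lower response in Rb null cells. Ppp1r15a was 0.40 in wildtype cells against 2.54, a difference of 2.14 (SE 0.13, adjusted p = 4.1e-08), and Ddit3 -0.73 against 1.43 (difference 2.16, adjusted p = 5.5e-07). Malat1, which is not on that list, was 1.501 against 3.72 (difference 2.22, adjusted p = 1.1e-04). Inflammatory genes had 12 higher and 3 lower responses among 29, with Cxcl1 at 1.37 in wildtype against 3.55 in Rb null cells and Lif at 0.73 against 2.73, while Icam1 was 3.06 against 3.13 and its difference was not called. Of the 4 serine and glycine synthesis genes Phgdh differed: its change was -1.34 here against 0.04 in wildtype cells (difference -1.38, SE 0.096, adjusted p = 1.1e-07), but Asns was -1.06 against -0.84 and its difference was not called (-0.22, adjusted p = 0.24). Of the 21 synthetases 1, Eprs, had a lower response (a call that both other scalings lost) and limma called 0 higher (4 at an unadjusted p under 0.05).

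Collagen medians were -1.84 in Rb null and -1.57 in wildtype cells, and of 19 genes 9 had a lower and 2 a higher response in Rb null cells. Col1a1 was -1.82 against -1.10 in wildtype cells (difference -0.72, SE 0.11, adjusted p = 1.3e-04), and Col5a1 -2.88 against -2.40 (difference -0.48, not called). The contractile and actin list had 4 higher and 2 lower responses of 33. Macrophage markers had a median of -1.01 against 0.40 in wildtype cells, with 15 of 21 lower in the difference and 0 higher (0 at an unadjusted p under 0.05). C1qa went from 435, 439.8 and 434 to 636, 579 and 529.9 in wildtype cells. Fibroblast markers, some of them collagens, had a median of -0.58 against 0.07 in wildtype cells. Of 13 tested limma called 10 lower in the difference (9 after median centring) and 0 higher (0 at an unadjusted p under 0.05).

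Single genes differed by far more. Lce1f, which rose in Rb null cells, read 2687, 2970.1 and 2669 in untreated and 782, 741 and 848 in treated wildtype cells, a difference of 5.61 (SE 0.15, adjusted p = 3.2e-11). Ifi202b read 242, 226 and 227 and 110.2, 126 and 128 in wildtype cells, a difference of 3.65 (SE 0.13). The untreated wildtype signals of Lce1f lay above even the treated Rb null ones, and both genes went down in wildtype and up in Rb null cells. On the other side, Tmem45a went from 444, 449 and 386 to 11.9, 16.5 and 10.2 in Rb null cells and from 305, 415 and 406 to 518, 515 and 624 in wildtype cells, a difference of -4.79 (SE 0.21, adjusted p = 1.7e-09). Sod3, the extracellular superoxide dismutase, went from 71.3, 81.2 and 69.7 to 67.9, 49.5 and 68.4 in Rb null and from 71.1, 81.1 and 42.4 to 998, 1034 and 997 in wildtype cells (-4.03, SE 0.27). Lum, the matrix proteoglycan lumican, went from 185, 133 and 148 to 88, 104 and 87.8 in Rb null and from 102, 90.3 and 115 to 954, 1007 and 919.9 in wildtype cells (-3.78, SE 0.19).

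**Figure D5:**
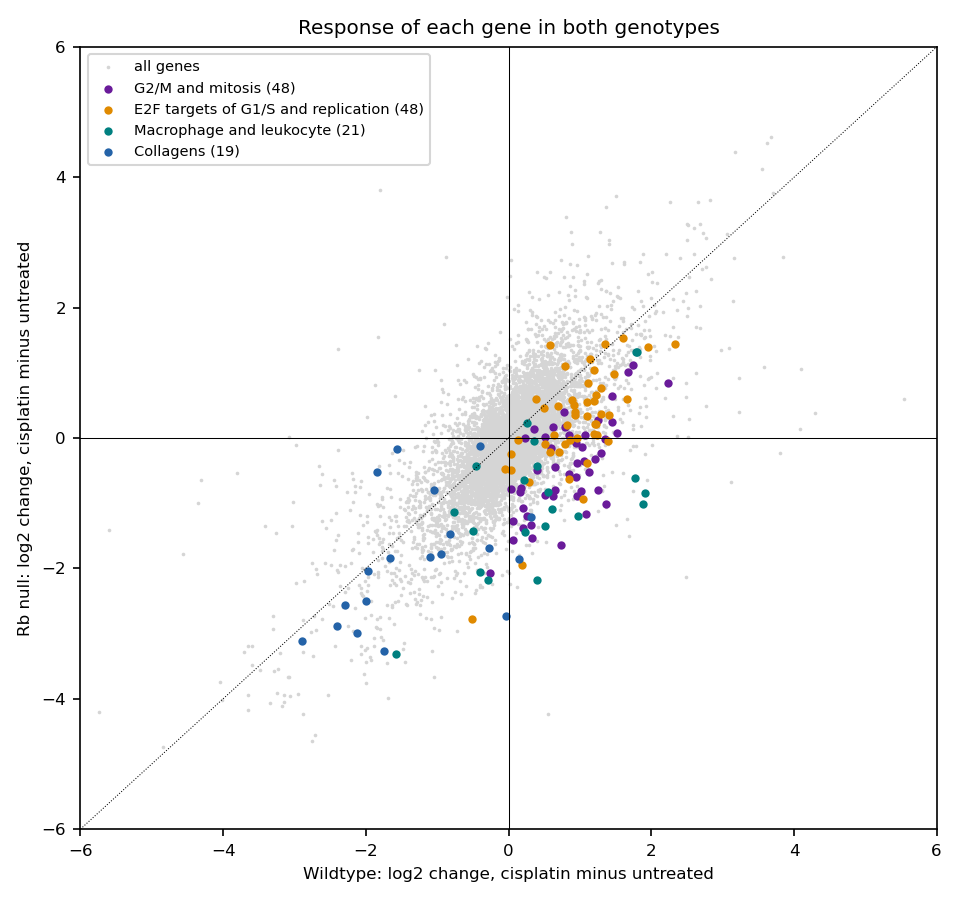
Change of log2(MAS5 signal + 10.4) on cisplatin of each of 7945 genes in wildtype (horizontal axis) and Rb null MEFs (vertical axis); the dotted line marks equal change, and 4 gene lists are coloured. Mitotic (purple) and macrophage genes (teal) lie mostly below the line with many points in the quadrant where the wildtype estimate is above 0 and the Rb null one below, replication genes (orange) lie mostly below the line at wildtype estimates above 0, and collagens (blue) have estimates below 0 in Rb null cells in all 19 cases.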

How the data were processed

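The authors deposited 1 table of MAS5 signal intensities on a linear scale for each of 12 short-oligonucleotide arrays, whose trimmed means (2% trimmed at each end) are nearly equal; MAS5 is named per the submitters' processing notes, and its version is not given in the sources used here. Probe sets were named from the platform annotation: of 22690, 20380 carried 1 symbol, 691 several and 1555 none, and 64 were controls. From the deposited intensities, log2(signal + 10.4) was computed, the 40% of probe sets with the lowest mean were dropped, and the remaining 13575 were fitted with limma 3.58.1 in R 4.3.3 (a mean per group, 12 arrays, eBayes with trend, 8 residual and 6.09 prior degrees of freedom), which was tested on simulated data. Each gene was represented by 1 probe set, the brightest without a cross-hybridization suffix where it had one, giving 7945 genes. Precision is limited by how many arrays there are. Replicate labels of the groups did not pair arrays (correlations of same-label deviations between genotypes, -0.186 to 0.109).

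The 15 largest rises and falls, the most changed called genes of each list, list members that a sentence needs, and the 8 largest differences each way were eligible to be named. The 15 were taken among called genes whose treated and untreated arrays do not overlap. The 8 were taken among genes called in the difference. Both rankings left out genes with provisional symbols, such as clone names. The gene lists and the comparison were chosen with earlier results of these data known. Promoter windows came from RefSeq. Alternatives covered the pseudocount, the filter, the scaling, the fold minimum, the groups fitted, a replicate block and each array left out.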

Additional observations from a re-analysis of the deposited data

Results flagged for a closer look

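The difference between the Rb null and the wildtype response, tested as an interaction in the limma fit over 13575 probe sets, was called higher for 1173 probe sets and lower for 1959. The counts were 1542 and 1535 after quantile normalization and 1678 and 1434 after median centring. All of these values also carry the untreated wildtype arrays, which differ from the other groups in Xist and Y-linked RNA; the part of that in the differences was not tested.

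The genes with the largest higher response in Rb null than in wildtype cells, on the log2 scale, were Lce1f (5.61), Fxyd6, a regulator of the sodium pump (4.18), Gbp2b (3.76), Cd200, a surface protein that restrains myeloid cells (3.66), Ifi202b (3.65), Crct1 (3.38), Moxd1 (3.36) and Bex1 (3.27). Such a value is a difference of 2 changes and need not be a rise in Rb null cells. Cd200 itself was called lower there, a call that some alternatives lost. Those with the largest lower response were Rpgrip1 (-4.94), Tmem45a (-4.79), the platelet chemokine gene Ppbp (-4.63), Sod3 (-4.03), Xist (-3.94), the water channel gene Aqp1 (-3.91), Lum (-3.78) and Igfbp4 (-3.19). Rpgrip1 itself was called higher in Rb null cells, a call that some alternatives lost. Xist changed by 0.13 in Rb null cells, which was not called, and by 4.08 in wildtype cells, whose untreated arrays carry little of it.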

How the results depend on the processing

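The scaling changed which direction held more calls. In Rb null cells 2141 probe sets were called higher and 2841 lower. Without a fold minimum these were 4120 and 4636, with a 2-fold minimum 919 and 1433, and after dropping the lowest 60% of probe sets 1767 were lower. For the difference of responses, with 1173 higher and 1959 lower, the counts without a fold minimum were 2025 and 3084, with a 2-fold minimum 403 and 788, and with the 60% filter 766 and 1255. Leaving out 1 array at a time gave 2106 to 2176 higher and 2793 to 2899 lower, and 1124 to 1235 and 1874 to 1965 for the difference. After quantile normalization 2468 were higher and 2461 lower, and after median centring 2551 and 2480, which moved the median of all probe sets from -0.02 to 0.04 and 0.06. For the difference the counts were 1542 and 1535 after quantile normalization and 1678 and 1434 after median centring. A random replicate block on the array labels (correlation -0.00981) again called 2141 higher and 2841 lower.

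Of 356 genes followed in Rb null cells, which include every gene given a Rb null change, 330 kept their call or lack of one throughout and limma reversed 0. The 19 that lost a call somewhere were Cd200, Rpgrip1, Lum, Hmgb2, Rps6, Mrps24, Psme4, Actc1, Tnnt2, Gap43, Lpl, Atp7a, Chek1, Foxm1, Pttg1, Rars, Rbl2, Stat2 and Tk1, and Fn1, H2-K1, Irf7, Lox, Pcna, Tagln and Trib3 gained one. Of 35 genes followed in the difference Cdc20, Eprs, Orc1 and Pcna lost a call somewhere. Of 46 list medians 38 kept their sign. Those of the BCL2 family, the Rb and G1 regulators, lysosomal and circadian genes and the muscle, cartilage, endothelial and sex-linked markers did not. Their size was less steady: of 596 medians under the alternatives, 167 moved by more than the spread of the list median between treated arrays. Genes near the background signal have only loosely known changes.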

Other observations

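Some families that share a symbol prefix, chosen after their values were seen, are not among the lists above. For comparison, 16.6% of all genes rose and 20.3% fell. Of 105 tested Zfp genes, most of them zinc finger transcription factors, 26 rose and 13 fell, with a median of 0.26 on the log2 scale. Of 11 integrin genes 1 rose and 6 fell, with a median of -0.59. Of 11 genes of the TNF receptor superfamily 5 rose and the other 6 were not called.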
